A study of Rattus norvegicus with 115 samples.

Results

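Leukocytes were followed in mammary tumours of rats given an antibody against PD-L1 together with LY2157299, which blocks the TGFBR1 kinase of TGF-beta signalling (labelled PDL1+LY), and in tumours of rats given Vehicle. All rats were virgin Sprague Dawley animals whose tumours had been induced by NMU, a methylating carcinogen, at 50 mg/kg in 1 to 3 injections at 35 to 53 days of age. Treatment began once a tumour could be felt. Leukocyte libraries were chosen by the level of Ptprc, the gene of the pan-leukocyte protein CD45, as the columns of the count table in which it reached at least 300 CPM (counts scaled to a column total of 1000000). This rule gave 44 of the 107 columns that could be tied to a group, and 20 of these came from PDL1+LY or Vehicle rats. The 20 were 8 columns of 6 PDL1+LY rats and 12 columns of 8 Vehicle rats, and the columns of 1 rat were summed because the rat received the treatment. The fit also held 5 rats given the antibody alone (PDL1) and 5 rats given LY2157299 alone (LY). Those rats served the shared estimates of spread and batch and are not compared here.

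PD-L1 on tumour and myeloid cells binds PD-1 on T cells and dampens them, and antibodies against PD-L1 release this brake. TGF-beta restrains cytotoxic lymphocytes, favours regulatory T cells and acts on macrophages and fibroblasts, which is why its receptor kinase is inhibited beside PD-L1. Tumour leukocytes sorted as a whole hold T cells, B cells, macrophages, neutrophils and dendritic cells, so their RNA mixes the programmes of all of these.

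Ptprc, which chose the columns and is given as a description, ranged from 1137 to 2049 CPM in the PDL1+LY columns (median 1329) and from 486.2 to 1255 CPM in the Vehicle columns (median 923). The other 28 columns of both arms reached at most 36.9 CPM. The columns nearest the threshold were Vehicle tumours P5T3 (486 CPM) and P6T2 (525.8 CPM). All 20 tumours had a CD45 sample in the labels, and 6 columns could be tied to that sample by name alone. Total counts were 7805478 to 29727437 in the PDL1+LY columns and 6674181 to 18260492 in the Vehicle columns. Batch 2 held 4 PDL1+LY and 4 Vehicle columns, batch 3 held 4 and 8, and Vehicle rats P6 and P8 had columns in both. Between the 16 batch 2 and 19 batch 3 leukocyte columns of the 4 treatment arms, 79 genes with a median of at least 5 CPM in batch 3 had a batch 2 median under 5% of it, against 2 genes the other way. T cell genes were abundant in most columns. Cd3e, a CD3 chain of T cells, reached 610 to 1440 CPM in the PDL1+LY columns and 21.7 to 1050 CPM in the Vehicle columns. Epcam, an epithelial adhesion gene, lay at 5.31 to 55.6 CPM in the PDL1+LY columns and at 2.4 to 111 CPM in the Vehicle columns.

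**Figure D1:**
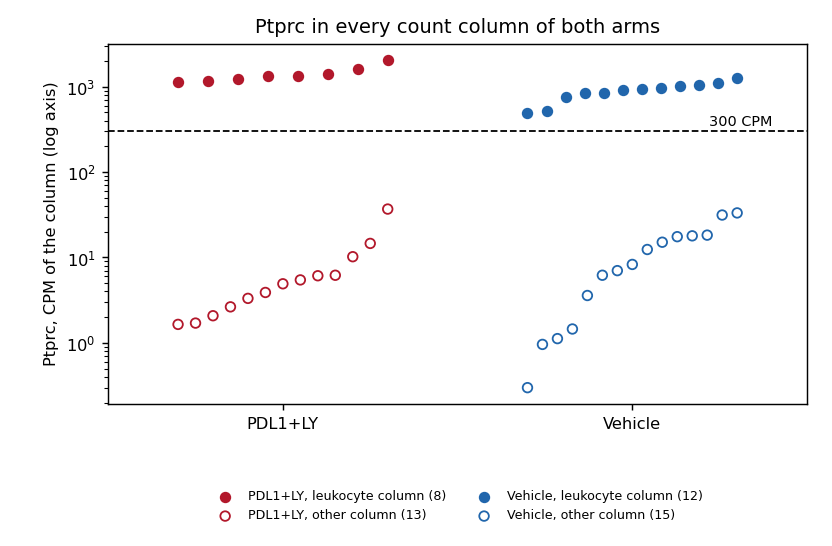
Ptprc in CPM (log axis) in every count column of both arms, with PDL1+LY on the left and Vehicle on the right; filled points are leukocyte columns, open points the other 28 columns, and the dashed line marks 300 CPM. Leukocyte columns start at 1137 CPM with PDL1+LY and at 486.2 CPM with Vehicle, while no other column exceeds 36.9 CPM.

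The comparison asked how the leukocytes of PDL1+LY tumours differed from those of Vehicle tumours. Myeloid genes, above all those of macrophages and of the complement system, lay lower in most PDL1+LY rats, B cell genes lay higher in some of them, and T cell genes lay slightly higher. With edgeR's quasi-likelihood test on the summed counts of 24 rats of 4 arms with batch as a term, 0 of 11932 genes passed an adjusted p of 0.05 (0% called, smallest adjusted p 0.13 by edgeR with Benjamini-Hochberg adjustment). An unadjusted p under 0.05 was reached by 1908 genes (16%), of which 955 were higher (8%) and 953 lower with PDL1+LY (7.99%). In 16 genes every PDL1+LY rat lay above every Vehicle rat (0.134%), and in 15 genes every one lay below (0.126%). DESeq2 called 426 genes (3.57%), 120 higher (1.01%) and 306 lower (2.56%), and 55 of its calls, all lower, were among the 79 genes depleted in batch 2. Without the rats that had columns in both batches, DESeq2 called 7 genes (0.0569%), 5 higher (0.0406%) and 2 lower (0.0163%), and 6 of these were among the 426. The rats left out there, and wherever this setting is named below, were Vehicle rats P6 and P8, PDL1 rats P24, P26 and P29, and LY rats P19 and P22. The fit thus also lost rats that served the estimate of the spread. Limma voom on rat sums called 0 genes (0%; smallest adjusted p 0.0574 by voom), and voom over single columns, with the rat as a random effect, called 288 (2.41%). The DESeq2 calls are given below as counts beside the edgeR values.

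Among the 10 genes with the smallest p of those higher with PDL1+LY were Itga4, Cd38 and Ccr3, and Il7r, of the naive and memory T cell list, is given beside them. Itga4, the alpha4 integrin by which lymphocytes adhere and enter tissue, lay at 119 to 318 CPM in PDL1+LY rats (median 201) and at 69.6 to 176 CPM in Vehicle rats (median 110). The log2 fold change was 0.89 ± 0.195 (SE; edgeR adjusted p = 0.13). PDL1+LY rats P33 and P36 lay within the Vehicle range and the other 4 above it. Il7r, the receptor for the survival cytokine IL-7, lay at 196 to 808 CPM with PDL1+LY (median 336) and at 75.4 to 248 CPM with Vehicle (median 129). Its log2 fold change was 1.42 ± 0.331, with 1.62 in batch 2 and 1.5 in batch 3. Only 1 PDL1+LY rat, P36 at 196 CPM, lay below the highest Vehicle rat. Cd38, an ectoenzyme that splits NAD and marks activated lymphocytes, lay at 33.8 to 127 CPM with PDL1+LY (median 87.6) and at 26.3 to 62.1 CPM with Vehicle (median 37.7). Ccr3, the eotaxin receptor, lay at 19 to 42.3 CPM with PDL1+LY (median 37.8) and at 9.76 to 29.7 CPM with Vehicle (median 16.5). In both genes a single PDL1+LY rat reached down into the Vehicle range, P33 for Cd38 and P35 for Ccr3.

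Dhx37, a helicase of ribosome assembly, lay at 33.5 to 56.9 CPM in PDL1+LY rats (median 38.6) and at 15.3 to 32 CPM in Vehicle rats (median 19), and the groups did not overlap. Its log2 fold change was 0.92 ± 0.186, the smallest p of the genes named (5.12e-05 unadjusted, edgeR adjusted p = 0.13). Lrpprc, which stabilises mitochondrial mRNAs, also separated the groups, with 52.7 to 99.8 CPM in PDL1+LY rats (median 65.2) and 33.9 to 49.5 CPM in Vehicle rats (median 38.6). The remaining genes of these 10 were Nipal1, a magnesium transporter (log2 fold change 1.4), the ubiquitin ligase Arel1 (1.06), Dcaf1, a substrate receptor of a ubiquitin ligase (0.85), the cytoskeletal Specc1l (0.83) and Ppp4r3b, a subunit of protein phosphatase 4 (0.77). In each of these 5 the groups overlapped.

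Among the genes lower with PDL1+LY, Apoe, the apolipoprotein that tumour macrophages secrete in large amounts, had 138 to 326 CPM in PDL1+LY rats (median 213) and 253 to 3800 CPM in Vehicle rats (median 592). Its log2 fold change was -2.9 ± 0.668 (edgeR adjusted p = 0.13; -3.5 in batch 2 and -2.8 in batch 3). The Vehicle rats were split, with 3190 to 3800 CPM in P5, P6 and P8 and 253 to 659 CPM in the other 5. Tifa, an adaptor that links TRAF proteins to NF-kappaB, lay at 1.88 to 7.86 CPM in PDL1+LY rats (median 3.9) and at 9.51 to 118 CPM in Vehicle rats (median 14.7), without overlap. Slc66a2, a membrane transporter of the PQ-loop family, likewise separated the groups at 11.3 to 20.5 CPM with PDL1+LY (median 15.2) and 22 to 57 CPM with Vehicle (median 40.6). Camk1, a calcium and calmodulin dependent kinase, lay at 9.06 to 16.1 CPM with PDL1+LY (median 12.2) and at 16.6 to 56.6 CPM with Vehicle (median 30.8), also apart. Their log2 fold changes were -2.74 ± 0.603 for Tifa, -1.33 ± 0.277 for Slc66a2 and -1.39 ± 0.32 for Camk1.

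Also lower were Adam15, a membrane metalloprotease (log2 fold change -2.21), Phyhd1, a dioxygenase (-1.76), Ctnnbip1, an inhibitor of beta-catenin (-1.65), Fh, the fumarase of the citric acid cycle (-1.1), the ubiquitin ligase Rnf166 (-0.94) and the clathrin light chain Cltb (-0.9). In all 6 the groups overlapped. None of the 20 genes with the smallest p changed its direction in any of the settings tried. These included the fit of the 8 rats that had not been compared in an earlier analysis of these data. Every setting reused rats of the fit that chose these genes, so a stable direction was largely fixed beforehand and is no independent check.

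**Figure D2:**
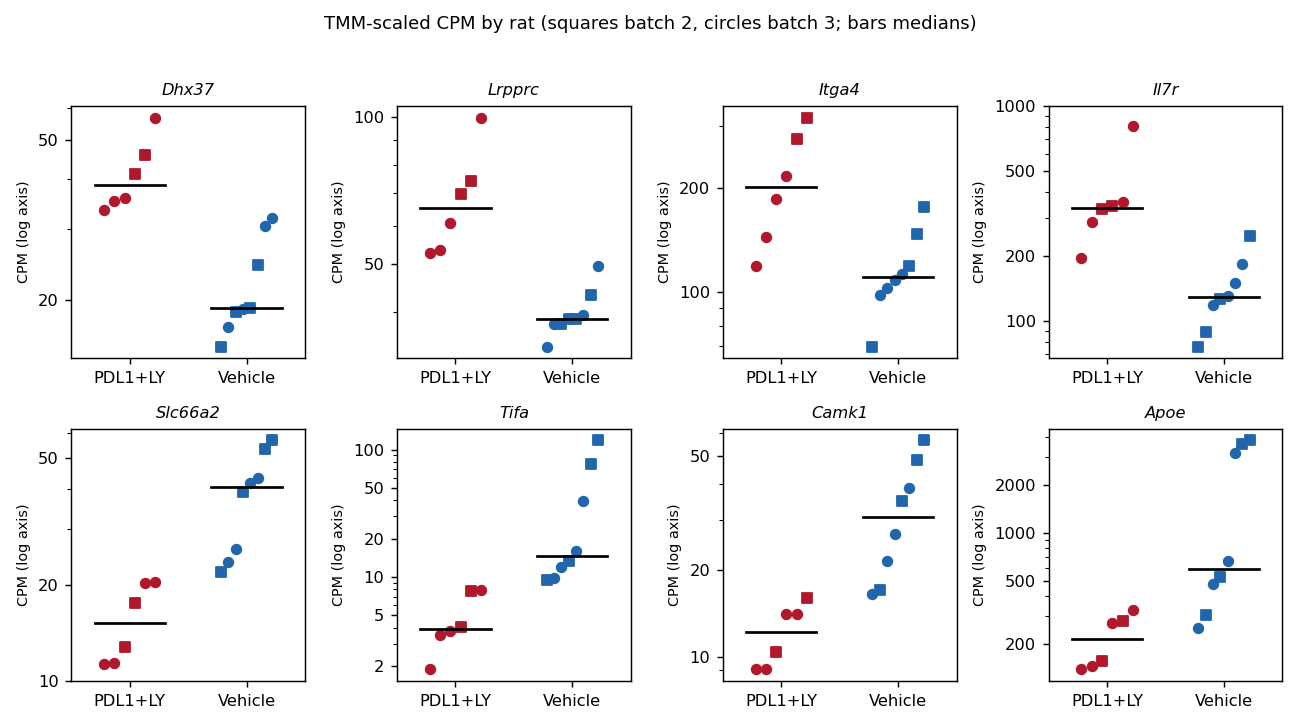
TMM-scaled CPM (log axes) of 8 genes in each PDL1+LY rat (left, red) and Vehicle rat (right, blue), with squares for rats assigned to batch 2, circles for batch 3 and bars at the medians. Dhx37, Lrpprc, Slc66a2, Tifa and Camk1 show no overlap between arms, whereas Apoe splits the Vehicle rats into 3 at 3190 to 3800 CPM and 5 at 253 to 659 CPM.

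Macrophage genes lay lower with PDL1+LY as a list. All 18 members tested had a negative log2 fold change, with a median of -2.27 against -0.0029 over all genes, and 12 of 18 had an unadjusted p under 0.05, where 7.99% of all genes did in this direction. None passed after adjustment by edgeR. DESeq2 called 8 lower (2.56% of all genes), and 0 of the 18 without the rats with columns in both batches (0.0163% of all genes lower). The largest differences were in Siglec1, the sialic acid receptor of resident macrophages (log2 fold change -3.99 ± 1.15), and Trem2, a lipid-sensing receptor of tumour macrophages (-3.29 ± 1.04). The mannose receptor Mrc1 (-2.81 ± 0.945), the scavenger receptor Cd163 (-2.69 ± 1.22), the Fc receptor Fcgr1a (-2.52 ± 0.733) and Csf1r, the receptor for the macrophage growth factor (-1.95 ± 0.759), followed. Msr1 (-0.03) and Itgam (-0.55) had the smallest differences. In bulk libraries, fewer macrophages and less of these RNAs per macrophage cannot be told apart.

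The difference was uneven among rats. Over the macrophage list the mean log2 CPM ranged from 3.12 to 6.34 in PDL1+LY rats (median 3.97) and from 3.45 to 8.3 in Vehicle rats (median 5.86). The summed CPM of the list were 285 to 4340 with PDL1+LY and 609 to 12500 with Vehicle. Vehicle rats P6, P8 and P5 lay above every PDL1+LY rat, at list means of 8.3, 7.72 and 7.65, and Vehicle rat P7 (3.45) lay among the lowest PDL1+LY rats. The median of the list was -3.37 within batch 2 and -2.19 within batch 3. Without PDL1+LY rat P33 it was -2.97, with 15 of 18 members at an unadjusted p under 0.05 (12.1% of all genes). Without the rats with columns in both batches, P6 and P8 among them, it was -1.37, with 3 of 18 members under that p (3.89% of all genes).

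Cd68, a lysosomal protein of macrophages, had 48.6 to 915 CPM in PDL1+LY rats (median 117) and 75.6 to 932 CPM in Vehicle rats (median 428), with a log2 fold change of -1.29 ± 0.653. P33 alone carried the upper end of the PDL1+LY range, since the next rat had 173 CPM.

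Complement genes, which tumour macrophages make in quantity, showed the same pattern. Of 16 members tested 15 lay lower with PDL1+LY, and the median log2 fold change was -2.16. An unadjusted p under 0.05 was reached by 9 (7.99% of all genes lower), while DESeq2 called 8 lower (2.56% of all genes). Without the rats with columns in both batches the median was -1.42, with 4 of 16 members under that p (3.89% of all genes), and DESeq2 called 0 of the 16 (0.0163% of all genes lower). C1qa, C1qb and C1qc, the chains of the recognition molecule C1q, belong to both lists, so the lists are not independent. C1qa had 33 to 586 CPM in PDL1+LY rats (median 121) and 37.7 to 2350 CPM in Vehicle rats (median 579), with a log2 fold change of -2.95 ± 1. Here too P5, P6 and P8 stood apart with 1950, 2350 and 2260 CPM, and the other 5 Vehicle rats spanned 37.7 to 588 CPM, much as the PDL1+LY rats did. C1qb lay at 28.8 to 262 CPM with PDL1+LY and at 50.2 to 2510 CPM with Vehicle, and C1qc at 31.6 to 323 CPM with PDL1+LY and 45.3 to 2570 CPM with Vehicle. Beyond C1q, the adipsin gene Cfd (-3.78 ± 1.15), the C1 inhibitor gene Serping1 (-2.75 ± 0.781), the anaphylatoxin receptor gene C5ar1 (-2.66 ± 0.932) and C2 (-2.38 ± 0.692) lay lower. Cd55, which protects host cells from complement, had the only positive value (1.83 ± 1.13), at -1.6 in batch 2 and 3.25 in batch 3.

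The promoters of 2 macrophage genes, picked by hand, are shown as an illustration. The myeloid factor PU.1, which acts in macrophages and B cells, binds a purine-rich core. Each line holds the 250 bases before the RefSeq start, 5′ to 3′ on the gene's strand, in assembly GRCr8 (whereas the submitters' processing notes name rn6), and capitals mark GAGGAA or its reverse complement TTCCTC.
C1qb, chr5:154407828-154408077, minus strand: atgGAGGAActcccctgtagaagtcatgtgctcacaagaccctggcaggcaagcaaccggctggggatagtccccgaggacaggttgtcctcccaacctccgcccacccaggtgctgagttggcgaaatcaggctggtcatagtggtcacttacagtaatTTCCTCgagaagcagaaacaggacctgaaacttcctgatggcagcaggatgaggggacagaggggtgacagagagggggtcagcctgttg
Mrc1, chr17:82157475-82157724, plus strand: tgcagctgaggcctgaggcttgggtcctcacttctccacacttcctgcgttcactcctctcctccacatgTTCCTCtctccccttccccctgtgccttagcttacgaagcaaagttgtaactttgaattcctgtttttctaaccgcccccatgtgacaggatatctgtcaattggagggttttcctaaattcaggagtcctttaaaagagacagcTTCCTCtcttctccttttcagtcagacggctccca
Both promoters held 2 matches, without overlap. At least 1 match stood in 9 of 13 macrophage list members with a promoter in the RefSeq table, in 3 of 6 B cell list members and in 4 of 13 T cell list members. The share was 23.1% of 9431 tested genes, with 1 promoter each, and 23.3% of all 33469 promoters of that length. These are matches of letters, no binding was measured, and a part of promoter sequence in the differences was not tested.

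**Figure D3:**
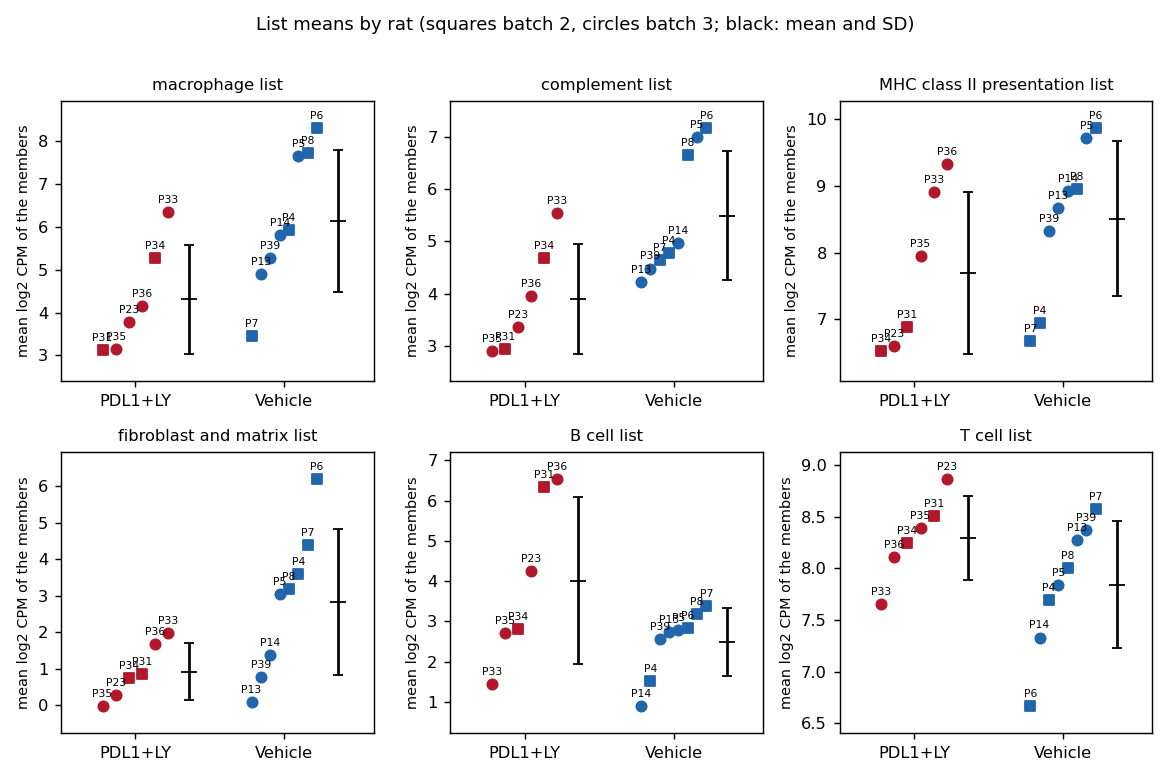
Mean log2 CPM of the members of 6 lists in each PDL1+LY rat (left, red) and Vehicle rat (right, blue); squares are rats assigned to batch 2 (P6 and P8 also have batch 3 columns), circles batch 3, and black marks show the mean and SD. Vehicle rats P5, P6 and P8 lie above every PDL1+LY rat in the macrophage and complement lists, and PDL1+LY rats P23, P31 and P36 lie above every Vehicle rat in the B cell list.

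Other myeloid lists also had negative medians. Of 13 monocyte and neutrophil genes tested 11 lay lower with PDL1+LY, with a median of -2.21. An unadjusted p under 0.05 was reached by 5, all lower (7.99% of all genes lower). Fcnb, a ficolin of monocytes, had 6.81 to 82.3 CPM in PDL1+LY rats (median 21.5) and 7.93 to 780 CPM in Vehicle rats (median 147), with a log2 fold change of -3.08 ± 0.991. S100a8, an alarmin of neutrophils, had 5.76 to 36.6 CPM with PDL1+LY (median 17.1) and 14.6 to 960 CPM with Vehicle (median 62.3), at -2.7 ± 1.27. Its upper Vehicle values came from P4 (960 CPM) and P7 (303 CPM), not from the rats with the most macrophage RNA. Mmp9, a gelatinase of neutrophils, was among the 2 members with positive values (1.23 ± 0.89).

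In the eicosanoid and phospholipase list 11 of 14 genes lay lower, with a median of -1.2. An unadjusted p under 0.05 was reached by 6, all lower (7.99% of all genes lower). Without the rats with columns in both batches the median was -0.74 and 0 of 14 were under that p (3.89% of all genes lower). The 6 included the leukotriene genes Ltc4s (-2.22 ± 0.98) and Alox5ap (-1.71 ± 0.666) and the thromboxane synthase gene Tbxas1 (-1.48 ± 0.607). Ptgs2, the inducible cyclooxygenase, lay at 0.91 ± 0.901. Lipid-handling genes were mixed, 9 of 13 lower with a median of -0.42 (-1.7 in batch 2, 0.12 in batch 3). Of the 13, 3 had an unadjusted p under 0.05, all lower (7.99% of all genes lower). Besides Apoe these were the liver X receptor gene Nr1h3 (-1.67 ± 0.684) and Npc2, which exports cholesterol from lysosomes (-1.04 ± 0.339). Without rat P33 the median of the lipid list was -1.26. Plin2, which coats lipid droplets, had 2910 CPM in P33 against 65.1 to 238 CPM in the other 5 PDL1+LY rats and 145 to 665 CPM in Vehicle rats.

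Genes of antigen presentation by MHC class II lay lower in part. Of 12 members tested 10 were lower, with a median of -0.95 (-1.68 in batch 2, -0.55 in batch 3). An unadjusted p under 0.05 was reached by 6, all lower (7.99% of all genes lower). Without PDL1+LY rat P33 the median was -1.59 with 9 of 12 under that p (12.1% of all genes lower). Without the rats with columns in both batches it was -0.66 with 3 of 12 lower under that p (3.89% of all genes). RT1-DMa and RT1-DMb, which load peptides, are 2 of those 6 but also belong to the 79 genes depleted in batch 2, and their values of -3.24 and -3.74 stood at -1.04 and -1.45 in batch 3 alone. Without them 8 of 10 members lay lower, 4 had an unadjusted p under 0.05 (7.99% of all genes lower) and 2 were called lower by DESeq2 (2.56% of all genes). Cd74, the invariant chain, had 4930 to 50700 CPM in PDL1+LY rats (median 8970) and 8950 to 52100 CPM in Vehicle rats (median 28200), at -1.06 ± 0.463. PDL1+LY rats P33 (50700 CPM), P36 (20900 CPM) and P34 (9900 CPM) lay within the Vehicle range and P23, P31 and P35 below it. The protease gene Ctss (-1.54 ± 0.475) and the thiol reductase gene Ifi30 (-1.32 ± 0.391), both of peptide processing, also lay lower. MHC class I genes had a median of -0.01, with B2m at 4220 to 8920 CPM in PDL1+LY rats (median 4980) and 3450 to 7740 CPM in Vehicle rats (median 5000).

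Dendritic cell genes had a median of 0.07. Clec10a, a lectin of conventional dendritic cells and macrophages, was lower (-2.17 ± 0.781), as was Batf3, a factor of cross-presenting dendritic cells (-1.11 ± 0.458). Xcr1 (0.22) and Clec9a (0.07), which mark cross-presenting dendritic cells, were near 0, as was Flt3 (0.07), a receptor not limited to them. The mast cell and eosinophil list had a median of -1.05, which single rats moved. Without PDL1+LY rat P33 it was -2.74, with 6 of 10 lower at an unadjusted p under 0.05 (12.1% of all genes) in place of 1 (7.99%). Without P31 it was -0.47. It was -0.2 without the rats with columns in both batches. Its members differed. The tryptase Tpsb2 had 0.811 to 49 CPM with PDL1+LY and 2.36 to 276 CPM with Vehicle (-2.49 ± 1.55). Il1rl1, the IL-33 receptor, which T cells and mast cells share, had 405 to 1030 CPM with PDL1+LY (median 797) and 155 to 865 CPM with Vehicle (median 284), at 1.11 ± 0.398.

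B cell genes had the highest list median. Of 12 members tested 11 lay higher with PDL1+LY, with a median log2 fold change of 2.82 (2.73 in batch 2, 2.9 in batch 3). An unadjusted p under 0.05 was reached by 8 of them, where 8% of all genes did in this direction. None passed after adjustment by edgeR, and DESeq2 called 5 higher (1.01% of all genes). Cd79b, a signalling chain of the B cell receptor, had 6.68 to 261 CPM in PDL1+LY rats (median 28.6) and 1.06 to 14.3 CPM in Vehicle rats (median 7.27), at 3.62 ± 0.948 (edgeR adjusted p = 0.145). The PDL1+LY rats were split, with 261, 207 and 48.4 CPM in P36, P31 and P23 and 6.68 to 8.84 CPM in P33, P34 and P35, within the Vehicle range.

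Other genes of the lineage were higher too. Ms4a1, which encodes CD20 (3.53 ± 1.03), the complement receptor Cr2 (5.39 ± 1.47), the Fc receptor Fcer2 (4.36 ± 1.18), the lineage factor Pax5 (3.13 ± 1.05) and the adaptor Bank1 (2.51 ± 0.871) had positive log2 fold changes. Cd37, a tetraspanin of many leukocytes, lay at -0.04 ± 0.145. Among plasma cell genes Pou2af1, a coactivator of B cells, lay higher (2.61 ± 0.709), Mzb1 lay at 1.94 ± 1.03 and Xbp1 at 0.03 ± 0.221. Cd79b, Ms4a1 and Pou2af1 were among the 7 genes that DESeq2 called without the rats with columns in both batches.

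The B cell signal was uneven among rats and tumours. By rat, the list means of P23 (4.24), P31 (6.34) and P36 (6.53) lay above the highest Vehicle rat (3.38). P33, P34 and P35 lay within the Vehicle range. In rat P31 the list mean was 8.02 log2 CPM in tumour T2, 4.19 in T3 and 2.89 in T1, and in P36 it was 6.53 in the 1 tumour sequenced. Vehicle tumours ranged from 1.11 to 3.41. Leaving out tumour T2 of P31 gave a median of 1.98, with 6 of 12 members at an unadjusted p under 0.05 (8.1% of all genes), and without rat P36 the median was 1.95. The 2 tumours with the highest B cell means, P31T2 and P36T3, were classed as stable in the deposited sample table. With PDL1+LY 3 of 8 tumours were classed so, and with Vehicle 1 of 12.

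T cell genes lay slightly higher. Of 19 members tested 18 had positive values, with a median of 0.49 (0.84 in batch 2, 0.4 in batch 3). An unadjusted p under 0.05 was reached by 4, all higher (8% of all genes higher). Without the rats with columns in both batches the median was 0.36 with 0 of 19 under that p (4.01% of all genes higher). Lck, the kinase that starts T cell receptor signalling, had 826 to 1700 CPM in PDL1+LY rats (median 1200) and 263 to 1590 CPM in Vehicle rats (median 665), at 0.65 ± 0.285. Cd3e had 684 to 1370 CPM with PDL1+LY (median 889) and 230 to 1010 CPM with Vehicle (median 687), at 0.5 ± 0.251. Cd8a, which marks cytotoxic T cells, had 48.1 to 406 CPM with PDL1+LY (median 128) and 65.1 to 331 CPM with Vehicle (median 211), and Cd4, of helper and regulatory T cells, had 161 to 428 CPM with PDL1+LY (median 232) and 72.3 to 467 CPM with Vehicle (median 205). Their log2 fold changes were 0.04 ± 0.558 for Cd8a and 0.25 ± 0.334 for Cd4. In all 4 genes the arms overlapped.

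Vehicle tumours P5T3 and P6T2 stood apart here, with T cell list means of 4.1 and 4.36 log2 CPM against 7.36 to 8.6 in the other 10 Vehicle tumours and 7.65 to 8.86 in the PDL1+LY tumours. They also had the highest macrophage list means, 8.32 and 8.65. When only columns with at least 600 CPM of Ptprc were used, which leaves out these 2, the T cell median was 0.36 with 2 of 19 members at an unadjusted p under 0.05, where 6.6% of all genes did. The macrophage median was then -2.04 with 12 of 18 members under that p, where 6.17% of all genes did. In the 8 rats not compared earlier the T cell median was 0.07.

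Genes of regulatory T cells were all higher, 9 of 9, with a median of 0.58. An unadjusted p under 0.05 was reached by 3 (8% of all genes higher). The T cell list, with a median of 0.49, was shifted in the same direction. Without the rats with columns in both batches the median was 0.44, and 0 of 9 were under that p (4.01% of all genes higher). Foxp3, the factor that defines the lineage, lay at 0.98 ± 0.413, and Il2ra, the high-affinity chain of the IL-2 receptor, at 0.94 ± 0.368, with 516 to 1200 CPM in PDL1+LY rats (median 601) and 103.4 to 990 CPM in Vehicle rats (median 312). Ctla4, an inhibitory receptor, had 111 to 215 CPM with PDL1+LY (median 179) and 34 to 205 CPM with Vehicle (median 107.9), at 0.63 ± 0.275. Vehicle rat P7 reached 990 CPM of Il2ra, and every other Vehicle rat lay below the lowest PDL1+LY rat. Among checkpoint genes Tox (0.69 ± 0.217), Btla (0.9 ± 0.374) and Lag3 (0.71 ± 0.34) were higher, and Entpd1, the ectonucleotidase CD39 of macrophages and regulatory T cells, was lower (-1.07 ± 0.382). Of 13 checkpoint genes 4 higher and 2 lower had an unadjusted p under 0.05 (8% and 7.99% of all genes). Without the rats with columns in both batches 1 higher and 0 lower did (4.01% and 3.89% of all genes).

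Cytotoxic genes had a median of 0.1, and 1 of 17, the death ligand Faslg (0.94 ± 0.436), had an unadjusted p under 0.05 (8% of all genes higher). The granule protease Gzmb (0.09 ± 0.616), perforin (Prf1, 0.68 ± 0.437) and interferon-gamma (Ifng, 0.28 ± 0.529) did not reach that p. Type I interferon genes had a median of 0.2 and interferon-gamma response genes one of 0.06. Of 18 type I genes, from Ifit3 (-1.23) to Mx1 (0.93), 1 higher and 1 lower had an unadjusted p under 0.05. Of 14 interferon-gamma response genes, from Cxcl11 (-2.19) to Ido1 (1.01), 2 higher and 2 lower did. The shares of all genes were 8% higher and 7.99% lower. Mx1, an antiviral GTPase, had 20.3 to 190 CPM in PDL1+LY rats (median 164) and 29 to 114 CPM in Vehicle rats (median 76.2), at 0.93 ± 0.373. P33 alone lay below the Vehicle range. Cell cycle genes had a median of -0.38, with 3 of 18 lower at an unadjusted p under 0.05 (7.99% of all genes). Without the rats with columns in both batches the cell cycle median was -0.42, with 1 of 18 lower under that p (3.89% of all genes).

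RNA of both drug targets differed by less than its standard error. Cd274, which encodes PD-L1, had 31.2 to 92.8 CPM in PDL1+LY rats (median 43.2) and 20.7 to 117 CPM in Vehicle rats (median 37.9), at 0.31 ± 0.393. Tgfbr1, which encodes the kinase inhibited, had 9.81 to 54 CPM with PDL1+LY (median 20.5) and 4.48 to 57.2 CPM with Vehicle (median 26.9), at 0.02 ± 0.45. Both are RNA levels and say nothing of the proteins the drugs act on. Pdcd1, which encodes PD-1, had 0 counts in every batch 2 column of both arms, so its fit (-1.45) is not interpretable. Among rats with batch 3 columns only, it had 17.4, 20.5, 24.2 and 33.5 CPM in PDL1+LY rats P23, P36, P35 and P33. Vehicle rats P5, P14, P39 and P13 had 6.32, 7.92, 18.2 and 19.7 CPM. The arms overlapped. The fit of batch 3 alone gave a log2 fold change of 1.08. It also held the batch 3 columns of Vehicle rats P6 and P8, whose values are not listed here.

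Of the TGF-beta ligands, receptors and SMADs, 15 were tested, with a median of 0.07. Smad2, which the receptor phosphorylates, was higher (0.53 ± 0.142, unadjusted p = 0.000983, edgeR adjusted p above the threshold), as was Smad4, its partner (0.47 ± 0.19). The ligand Tgfb1 was lower, with 37.5 to 104.8 CPM in PDL1+LY rats (median 66.7) and 48.6 to 250 CPM in Vehicle rats (median 95.2), at -0.68 ± 0.319. Genes that respond to TGF-beta had a median of 0.15 and went both ways. Tgfbi, a matrix protein that macrophages also make, was lower (-2.24 ± 0.606), and Ccn2, a connective tissue growth factor, was lower (-1.66 ± 0.774). Smad7, the feedback inhibitor, had 45.1 to 775 CPM with PDL1+LY (median 132) and 101.4 to 397 CPM with Vehicle (median 142), at 0.31 ± 0.547. Bhlhe40 lay at 0.33 ± 0.374 and Tgif1 at 0.22 ± 0.455.

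Chemokine receptors lay mostly higher with PDL1+LY, and chemokines varied by rat. Of 13 receptors 11 had positive values with a median of 0.71. Cxcr6 (0.92 ± 0.329) and Cxcr3 (0.95 ± 0.456), both of effector T cells, had an unadjusted p under 0.05, as did Cxcr2 of neutrophils (-2.06 ± 0.909) and Cx3cr1 of monocytes (-1.26 ± 0.582), which were lower. These were 2 higher and 2 lower of 13 (8% and 7.99% of all genes). None of the 13 was under that p when the rats with columns in both batches were left out (4.01% of all genes higher and 3.89% lower). Among chemokines Cxcl13, which attracts B cells, was lower (-3.48 ± 1.09), the stromal Cxcl12 was lower (-2.36 ± 0.989), and Cxcl16, the ligand of Cxcr6, was lower (-1.16 ± 0.405).

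PDL1+LY rat P33 departed from its arm in inflammatory genes. Ccl2, which recruits monocytes, had 7940 CPM in P33, 12.9 to 250 CPM in the other 5 PDL1+LY rats and 125 to 1500 CPM in Vehicle rats. Il1b had 3660 CPM in P33, 45 to 356 CPM in the other 5 and 115 to 882 CPM in Vehicle rats. The median of the chemokine list was -0.24 with P33 and -1.81 without it, and that of the inflammatory cytokine list was 0.39 with it and -0.86 without it. Without P33 edgeR called 13 genes (0.109%), 10 higher (0.084%) and 3 lower (0.0252%). They included Dhx37 (0.94), Itga4 (0.95), Cd38 (1.24), Nipal1 (1.53) and Dcaf1 (0.94) among the higher genes and Ctnnbip1 (-1.85), the lymphotoxin receptor Ltbr (-2.05) and the NADPH oxidase subunit Ncf4 (-1.47), which are the lower ones, each with an adjusted p of 0.0466 by edgeR.

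Several lists of cells other than leukocytes also lay lower with PDL1+LY. All 12 fibroblast and matrix genes tested lay lower with PDL1+LY, with a median of -2.21 (-4.58 in batch 2, -1.11 in batch 3). An unadjusted p under 0.05 was reached by 5 (7.99% of all genes lower). Without the rats with columns in both batches the median was -1.54, with 3 of 12 under that p (3.89% of all genes lower). Their summed CPM were 49 to 702 in PDL1+LY rats (median 88.3) and 126 to 2650 in Vehicle rats (median 397). The collagen Col1a1 had 0.89 to 17.7 CPM with PDL1+LY (median 3.13) and 2.55 to 529 CPM with Vehicle (median 19.8). Col1a2 had 0 counts in 5 of 8 PDL1+LY columns and 7 of 12 Vehicle columns, and at most 0.18 CPM with PDL1+LY and 0.312 CPM with Vehicle. Sparc, a matrix protein, had 5.06 to 24.7 CPM with PDL1+LY and 5.75 to 797 CPM with Vehicle (-3.06 ± 1.02), the highest value again in rat P6. Luminal epithelial genes were lower in 11 of 11 with a median of -0.83 and 0 at an unadjusted p under 0.05 (7.99% of all genes lower). Their median summed CPM was 227 in PDL1+LY rats and 294 in Vehicle rats. Smooth muscle genes had a median of -1.28. Endothelial genes had one of -0.26, with 3 of 9 above 0, and Pecam1, which leukocytes share with endothelium, at 0.61 ± 0.244. Erythrocyte genes had a median of 0.86, with 3 of 4 above 0, and of -0.02 without PDL1+LY rat P36. The part of these cells in the myeloid differences was not tested. Genes induced by tissue digestion had a median of -0.27.

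**Figure D4:**
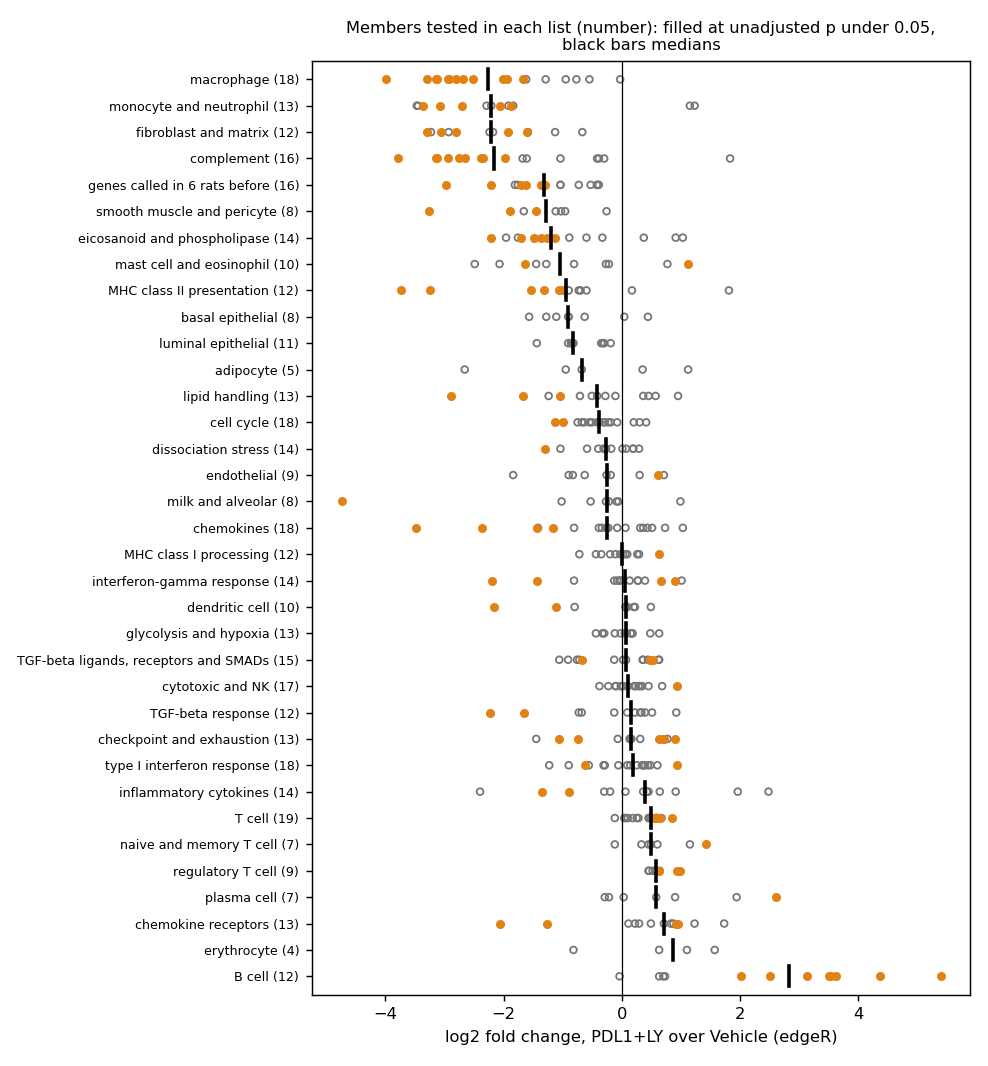
Log2 fold change of PDL1+LY over Vehicle (edgeR) for every tested member of the 35 lists, one list per line with the number tested; filled points have an unadjusted p under 0.05, open points do not, and black bars are medians. The lists run from macrophage genes at the top (median -2.27) to B cell genes at the bottom (median 2.82).

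The 16 genes that an earlier comparison of 3 PDL1+LY and 3 Vehicle rats had called lower were followed into the larger set. Because those 6 rats are part of it, the values are not independent. All 16 lay lower, with a median of -1.31, and 7 had an unadjusted p under 0.05 (7.99% of all genes lower). None passed after adjustment by edgeR, and DESeq2 called 3 (2.56% of all genes lower). Tppp3, a tubulin-binding protein, had 3.42 to 61.9 CPM in PDL1+LY rats (median 13.8) and 26.5 to 414 CPM in Vehicle rats (median 97.2), at -2.97 ± 0.866. Card9, an adaptor of fungal recognition in myeloid cells, was lower at -1.63 ± 0.503 and the zinc finger gene Zfp710 at -1.32 ± 0.353. In the 3 PDL1+LY and 5 Vehicle rats that had not been compared before, 11 of 16 lay lower with a median of -0.67, where 57.4% of all genes lay lower, 1 had an unadjusted p under 0.05 and 0 passed (0% called). Tppp3 lay at -2.74 there, Fxyd2, a regulator of the sodium pump, at -1.77, Lpl, the lipoprotein lipase, at 0.69 and Cd59, a complement inhibitor, at 0.59. In those 8 rats the macrophage median was -2.18 and the B cell median 1.97, with 6 of 18 and 0 of 12 members at an unadjusted p under 0.05 (2.62% of all genes lower and 1.99% higher).

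**Figure D5:**
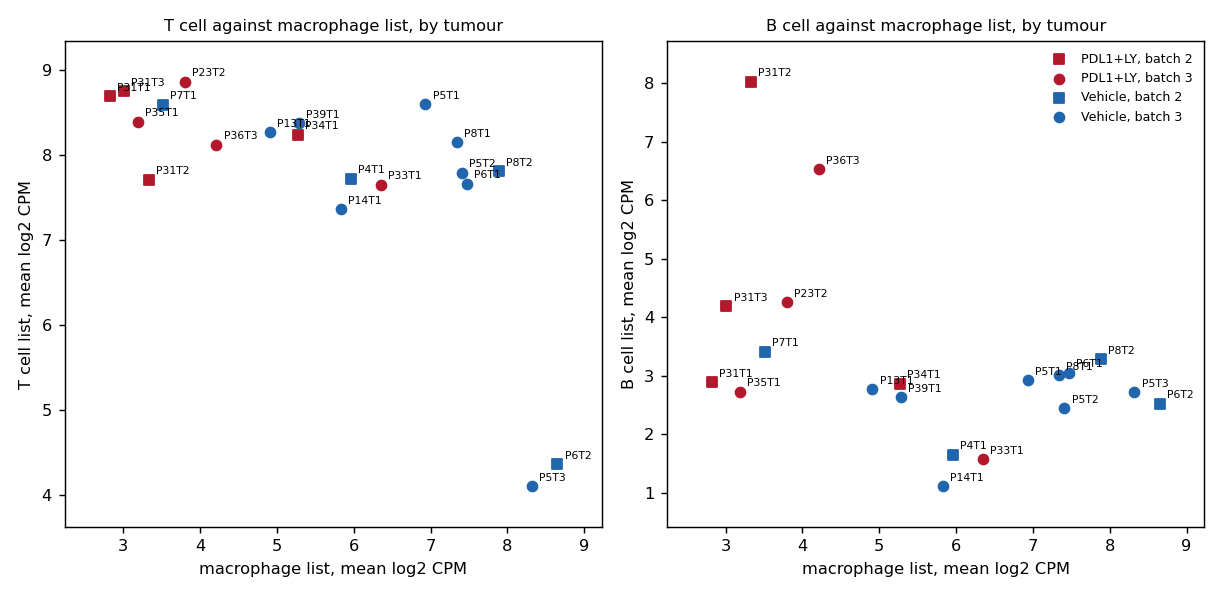
Mean log2 CPM of the T cell list (left) and the B cell list (right) against that of the macrophage list in each of the 20 tumour columns; red is PDL1+LY, blue Vehicle, squares batch 2 and circles batch 3. P5T3 and P6T2 combine the highest macrophage means with T cell means of 4.1 and 4.36, and P31T2 and P36T3 have the highest B cell means.

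Tumours of 1 rat did not always share a profile. The 3 tumours of PDL1+LY rat P31 had macrophage list means of 2.82, 3.33 and 3.01, all low, and differed in B cell genes as given above. The 3 tumours of Vehicle rat P5 had macrophage means of 6.93, 7.41 and 8.32 and T cell means of 8.6, 7.79 and 4.1. The tumours of P5 thus differed more in T cell than in macrophage genes.

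CD8 fraction and tumour size, which the choice of columns did not use, were taken from the deposited sample table. The CD8 fraction of the same tumours averaged 0.0394 ± 0.0287 in PDL1+LY rats (SD, n = 4) and 0.0817 ± 0.088 in Vehicle rats (SD, n = 7), a difference of -0.0423 with p = 0.364 in a two-sided exact permutation test. It ranged from 0.013 to 0.0801 with PDL1+LY (median 0.0322) and from 0.0249 to 0.277 with Vehicle (median 0.0531), and without Vehicle rat P7 the difference was -0.0098. Tumour size, in a unit that is not stated, averaged 21.2 ± 10.2 in PDL1+LY rats (SD, n = 6) and 26.9 ± 12.3 in Vehicle rats (SD, n = 8), with p = 0.387 in the same exact test, and ranged from 10 to 35 with PDL1+LY and from 6 to 47 with Vehicle. Time from NMU to sacrifice, whose unit is not stated either, was 79 to 238 for PDL1+LY rats and 77 to 169 for Vehicle rats. Neither difference exceeded the spread between rats.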

How the data were processed

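The authors deposited raw counts, whole numbers for each gene symbol, in 1 table. The submitters' processing notes name rn6, STAR and FastQC. How reads were counted, on which annotation and with which strand setting, is not given here, so reads of overlapping or near-identical genes may be shared. Libraries were made with a SMARTer low-input kit from less than 10 ng of RNA, per the labels' protocols. Column names give a rat and a tumour, not a fraction. Of 108 columns 1 could not be tied to a rat and was not used. CD8 values are a fraction from 0 to 1 in the authors' deposited sample table, whose batch numbers were also used.

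Counts were summed per rat and tested with edgeR 4.0.16 in R 4.3.3 (quasi-likelihood F test, robust, TMM scaling, filterByExpr, batch as a term, Benjamini-Hochberg adjustment, threshold 0.05) over 24 rats of 4 arms. A rat with columns of 2 batches took the batch of most of its counts. SE was taken as |log2 fold change| / sqrt(F). CPM of rats are TMM-scaled, and CPM of single genes in columns use total counts. List means, of rats and of columns, are of TMM-scaled log2 CPM with a prior count of 2. CD8 fraction and tumour size were compared with exact permutation tests over rats. The edgeR fit was also run on simulated counts with known changes, whose outcome is not given here and on which no statement rests. DESeq2 1.42.0, limma 3.58.1 voom, RLE scaling, other filters and Ptprc limits, single batches and leaving out each rat were tried. P-values measure the spread between rats. No pair of columns was identical (highest correlation 0.988). SEs and SDs likewise hold the spread between rats. No molecular identifiers are mentioned, so reads may include PCR copies.

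Genes named are, by the rule, the 10 with the smallest p per direction (average log2 CPM of at least 3, no provisional symbols), 3 members of each of 35 lists with the highest level, fixed marker and drug target genes and the 16 genes called before; other list members were chosen after their values were seen. The members, lists and rule were chosen with earlier results of these data known. A few results are not reported here. RefSeq symbols of GRCr8 matched 17107 of 17455 genes.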

Additional observations from a re-analysis of the deposited data

Results flagged for a closer look

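In 354 groups of 4 to 8 rats (genes named, list means, CD8 fraction and tumour size) the gap between the outermost rat and its neighbour was set against the whole range (gene levels as log2 CPM), and 15 values stood apart by Dixon's 95% limit, which chance alone passes in about 1 in 20 groups. Of these, 5 were of PDL1+LY rat P33, with Ccl3 at 1730 CPM and Plin2 at 2910 CPM above its group, and Bhlhe40 at 371 CPM, Mx1 at 20.3 CPM and Tgfbr2 at 8.66 CPM below it. PDL1+LY rat P35 had Il2ra at 1200 CPM, the highest, and Ccr3 at 19 CPM, the lowest of its group. PDL1+LY rats P31, with Acta2 at 1.16 CPM, and P23, with S100a9 at 17.4 CPM, were the lowest for these genes.

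Vehicle rat P7 stood apart in 4 measures. Its CD8 fraction of 0.277 and its Cldn4 at 301 CPM were the highest, and its Cfp at 78.5 CPM and its mean log2 CPM of cell cycle genes of 3.75 were the lowest of the Vehicle rats. Vehicle rat P13 had Dst at 8.83 CPM and P6 had Tnfrsf4 at 202 CPM, each the lowest of its group.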

How the results depend on the processing

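The number of genes called changed with the test. It was 0 with edgeR and with limma voom on rat sums (smallest adjusted p 0.13 and 0.0574; 1908 and 2274 genes at an unadjusted p under 0.05), 426 with DESeq2, and, in fits added after the data had been seen, 288 with voom over single columns with the rat as a random effect and 7 with DESeq2 without the rats with columns of 2 batches. Leaving out each rat gave 0 to 13 calls, the 13 without PDL1+LY rat P33; the cause was not tested. RLE scaling, other filters, no batch term, batch 2 or batch 3 alone, only the 2 arms, other Ptprc limits, the deepest column of each rat, batch as a share of counts, the rats not compared before, the rats without columns of 2 batches and the columns besides tumour T2 of P31 gave 0 calls with edgeR. Of 35 list medians 19 lay below 0, and 17 to 24 did in the other settings. The difference in CD8 fraction ranged from -0.0559 to -0.0098 and that in tumour size from -8.61 to -2.75 when each rat was left out.

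No paired analysis was possible because each rat received 1 treatment and replicate numbers only name samples. Total counts per rat and 6 and 8 rats per arm limit the precision.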
